A study of Drosophila melanogaster with 18 samples.

Results

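The cytochrome P450 genes of Drosophila melanogaster were followed across 3 genotypes and 2 sequencing platforms. They were taken by symbol, as every row of the deposited Illumina gene table whose name began with Cyp and a digit, which gave 86 of 17972 genes. One of these, Cyp1, encodes the peptidyl-prolyl isomerase cyclophilin 1 and not a P450, so it was held apart. The other 85 were P450 genes, including the pseudogenes Cyp6a15Psi and Cyp6t2Psi, and 83 of them were also listed among the 13969 genes of the Nanopore table. Another 6 P450 genes, the Halloween genes of ecdysteroid synthesis, carry other symbols and were read as a separate list.

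P450s are haem-containing monooxygenases that draw electrons from NADPH, through P450 reductase (Cpr) in the endoplasmic reticulum or through adrenodoxin reductase and ferredoxin in mitochondria. Insect P450s fall into 4 clans. The CYP3 clan, with the Cyp6, Cyp9 and Cyp28 families, is best known for breaking down plant toxins and insecticides; the CYP4 clan includes enzymes of fatty acid and cuticular hydrocarbon metabolism; the mitochondrial and CYP2 clans include enzymes that make or inactivate moulting hormone. Of the 85 genes, 40 belonged to the CYP3 clan, 32 to the CYP4 clan, 9 to the mitochondrial clan and 4 to the CYP2 clan. By chromosome arm, 35 were on 2R, 16 on 3R, 14 on X, 14 on 2L and 6 on 3L.

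RNA came from whole adult flies, and each genotype had 3 libraries per platform, which the labels call independent biological replicates. All flies carried GR23E10-gal4, a driver known to act in sleep-promoting neurons of the fan-shaped body of the brain, so any transgene was switched on in a small part of the animal while the RNA measured was that of the whole. The driver control (GR23E10-gal4;+) had no transgene, dec2WT flies (GR23E10-gal4;UAS-dec2WT) carried the unmutated form of Dec2, a basic helix-loop-helix repressor, and dec2P384R flies (GR23E10-gal4;UAS-dec2P384R) carried the P384R mutant of it, linked to short sleep in people. Stocks were kept at 25 °C in cycles of 12 h light and 12 h dark, and about 70 animals per extraction were taken at zeitgeber time 3, that is 3 h after lights on. Neither gene table lists a transgene, and transgene levels were not analysed here. The labels give neither sex nor age, and they do not say whether the 2 platforms were given the same RNA.

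Illumina libraries held 18057117 to 28293197 reads on genes and Nanopore libraries 1922380 to 4659601 estimated counts. Yolk, eggshell and oocyte genes were close to absent: the summed level of 17 of them was 11.3 to 20.1 FPKM (fragments per unit of gene length, adjusted for library size) in every Illumina library, with Vm26Aa and Cp38 at 0, beside 2300.0 to 3373.0 FPKM for 11 testis genes. One library stood apart, dec2WT Nanopore replicate 1, in which the clock gene tim read 247 CPM (counts scaled to the library total) against 28.4 to 44.9 in the other 8. Cyp4d21, a male-biased gene also known as sxe1, stood out in the same library at 303 CPM against 63.3 to 137. Its Illumina range was only 49.8 to 78.1 FPKM.

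P450 transcripts spanned the whole range of expression. In the driver control 10 genes averaged over 100 FPKM, 37 lay between 10 and 100, 26 between 1 and 10, and 12 were under 1. Cyp4g1 (FBgn0010019, X, 467057 to 469335), the decarbonylase of the oenocytes that makes cuticular hydrocarbons, ranked 2 of all 17972 genes by mean FPKM in the control. It alone supplied 73.7% to 83.7% of the summed P450 FPKM of a library. Behind it came Cyp6g1, known for resistance to DDT and neonicotinoids, at 526 ± 75.0 FPKM (mean ± SD, n = 3), Cyp6d5 at 399 ± 27.3, Cyp6w1 at 223 ± 34.6 and Cyp9f2 at 175 ± 22.5. Cyp28d1, known for nicotine tolerance, and Cyp12a4, known for lufenuron resistance, were also over 100 FPKM.

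**Figure D1:**
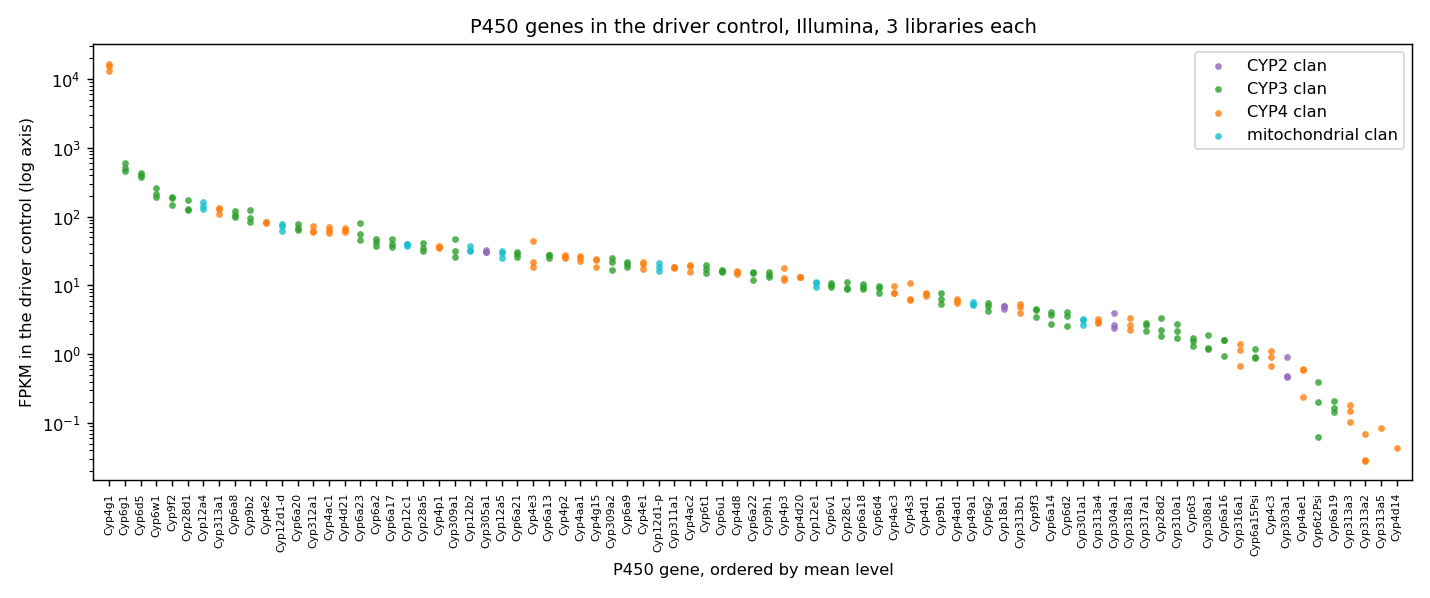
Level of each P450 gene in the 3 Illumina libraries of the driver control, on a logarithmic FPKM axis, with genes ordered by mean and points coloured by clan. Cyp4g1 stood far above the other genes, 37 genes lay between 10 and 100 FPKM, and values of 0, such as those of Cyp9c1 and Cyp4d2, cannot be drawn on this axis.

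Cyp4g1 read 12930.9, 16621.7 and 15285.7 FPKM in driver control replicates 1, 2 and 3, 13293.1, 12327.7 and 12655.2 in dec2WT, and 12032.5, 9409.8 and 11328.9 in dec2P384R. All 3 dec2P384R libraries were below all 3 control libraries, while dec2WT overlapped the control. The log2 fold change of dec2P384R over control was −0.45 ± 0.20 (SE) with a limma adjusted p of 0.338, so Cyp4g1 did not pass; in DESeq2 on recovered reads its adjusted p was 0.0213. On Nanopore the corresponding value was −0.36 ± 0.24 (edgeR adjusted p = 0.62), and the groups overlapped. In all, 4 oenocyte genes of lipid synthesis, of which 0 passed in limma (1 at an unadjusted p under 0.05) and 0 in edgeR or DESeq2 on recovered reads, summed to 1416.1 to 1876.1 FPKM in the control libraries, 1630.2 to 2012.4 in those of dec2WT and 1191.9 to 1719.6 in those of dec2P384R. In whole-fly RNA, fewer cells of a type and less RNA per cell cannot be told apart.

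Without Cyp4g1, the other 84 P450 genes summed to 3269.6 ± 110 FPKM in the control, 3226.7 ± 315 in dec2WT and 3000.2 ± 482 in dec2P384R (SD, n = 3 per group). The 3 groups overlapped in this sum. By clan, the 40 CYP3 genes summed to 2196.4 ± 133, 2221.5 ± 286 and 2003.4 ± 406 FPKM in the same order of genotypes. The 9 mitochondrial-clan genes summed to 354.5 ± 19.8, 348.2 ± 25.4 and 332.2 ± 53.3 FPKM. The 4 CYP2-clan genes summed to 39.8 ± 0.588, 41.9 ± 2.28 and 36.8 ± 3.37 FPKM. With Cyp4g1 included, the 32 CYP4 genes summed to 15624.9 ± 1848.5, 13373.8 ± 486.8 and 11551.6 ± 1318.1 FPKM. In that sum every dec2P384R library (10085.0 to 12637.5) lay below every control library (13643.7 to 17303.3), and dec2WT overlapped the control.

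The first comparison set flies with the mutant transgene against the driver control. Of the 77 P450 genes with enough expression to be tested on Illumina, 8 (10.4%) passed the threshold, an adjusted p under 0.05, against 2.8% of all 13418 genes tested. Of these, 7 fell in dec2P384R and 1 rose, while 1.17% of all genes fell and 1.63% rose; 5 of the fallen were Cyp6 genes (Cyp6a14, Cyp6w1, Cyp6a20, Cyp6a8 and Cyp6a2), 1 was a Cyp4 gene (Cyp4p2) and 1 was mitochondrial (Cyp12c1), while Cyp4p1 rose. The median log2 fold change was −0.04 over the 77 genes and 0.0035 over all genes, and 69 P450 genes did not pass. The median size of the log2 fold change, regardless of sign, was 0.302 for the P450 genes and 0.14 for all genes. Libraries of the groups did not overlap for 24 P450 genes (31.2%), against 16% of all genes.

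Cyp6w1 (FBgn0033065, 2R, 6173684 to 6176195), known for its association with DDT resistance, was the most abundant of the genes that fell. It read 261, 214 and 194 FPKM in the control and 78.2, 103 and 82.6 in dec2P384R. Every dec2P384R library was thus well below every control library, and the fall was 2.53-fold (log2 −1.34 ± 0.19 SE, limma adjusted p = 0.00377).

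Cyp6a14 (FBgn0033302, 2R, 8564187 to 8567202) had the largest fall on the log2 scale at a low level. Control libraries held 2.77, 3.72 and 4.04 FPKM, and dec2P384R libraries 0.69, 1.10 and 0.886. The groups were far apart on Illumina (−1.52 ± 0.17, limma adjusted p = 0.000831). On Nanopore they overlapped, with 28.7, 19.3 and 31.1 CPM in the control and 32.8, 9.50 and 17.2 in dec2P384R. In the annotation, 30.1% of the exonic bases of Cyp6a14 face an annotated transposon copy on the opposite strand, and the strand setting of the counting is not given in the sources used here.

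Cyp6a20 (FBgn0033980, 2R, 14882118 to 14884046), known for its link to male aggression and social experience, read 63.7, 77.6 and 67.2 FPKM in the control and 25.9, 41.4 and 36.1 in dec2P384R. It fell 2.03-fold (−1.02 ± 0.16, limma adjusted p = 0.0051) with no overlap of libraries. The dec2WT libraries, at 59.2, 58.0 and 57.4 FPKM, lay between the other groups, closer to the control.

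Cyp6a8 and Cyp6a2, both known as genes that are overexpressed in insecticide-resistant strains, fell 2.01-fold (−1.005 ± 0.18, limma adjusted p = 0.0144) and 1.60-fold (−0.68 ± 0.13, limma adjusted p = 0.0174). Both also differed in dec2WT, and their libraries are given with that comparison. Without driver control replicate 2 the adjusted p of Cyp6a8 was 0.0728, and Cyp6a2 lost its call in 4 of 9 omissions of a library (up to 0.0835, without driver control replicate 2).

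Neighbouring Cyp4p genes went opposite ways. Cyp4p2 (FBgn0033395, 2R, 9237512 to 9239831) read 26.3, 25.4 and 27.6 FPKM in the control and 15.2, 15.9 and 18.4 in dec2P384R, a fall of 1.59-fold (−0.67 ± 0.10, limma adjusted p = 0.00434). Cyp4p1 (FBgn0015037, 2R, 9240041 to 9242139), the next gene along the chromosome, read 35.7, 37.8 and 34.5 FPKM in the control and 52.6, 52.6 and 44.0 in dec2P384R, a rise of 1.37-fold. For both genes dec2WT lay between the control and dec2P384R and did not overlap the control, at 20.4 to 21.4 FPKM for Cyp4p2 and 42.2 to 48.7 for Cyp4p1. The rise of Cyp4p1 sat at the threshold (0.46 ± 0.11, limma adjusted p = 0.04995) and was lost in 8 of 9 omissions (up to 0.189, without driver control replicate 3) and with a pseudocount of 0.1 (0.0514) or 1 (0.0501).

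Cyp12c1 (FBgn0036806, 3L, 18684259 to 18686319), of the mitochondrial clan, read 38.0, 39.6 and 39.9 FPKM in the control and 25.1, 31.9 and 26.8 in dec2P384R. Its fall of 1.40-fold (−0.49 ± 0.11, limma adjusted p = 0.0412) was lost in 8 of 9 omissions (up to 0.151, without driver control replicate 3) and with the 6 compared libraries alone (0.115).

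Libraries of the control and of dec2P384R that shared a replicate number deviated together, and with that number as a block 12 P450 genes passed, while the share of all genes called was 3.76% in place of 2.8%. The 8 above kept their calls, and Cyp9f3 (0.78 ± 0.12, limma adjusted p = 0.00651), Cyp4p3 (0.62 ± 0.12, 0.0206) and Cyp6a9 (0.51 ± 0.11, 0.035) joined as higher and Cyp6t1 (−0.57 ± 0.11, 0.0263) as lower in dec2P384R. Cyp9f3 read 3.42, 4.54 and 4.42 FPKM in the control and 5.36, 8.62 and 8.69 in dec2P384R, without overlap. DESeq2 on recovered reads called 14 P450 genes, 3 higher and 11 lower, and 3.66% of all genes. Without driver control replicate 2 the limma count was 4, all lower, and 1.34% of all genes were called.

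Midgut and fat body genes differed in the same libraries, and their part in these results was not tested. Of 15 midgut genes of digestion, 3 fell and 0 rose (limma; 4 fell and 0 rose on Nanopore in edgeR), and their summed level was 13946.3 to 16600.9 FPKM in the control and 10759.5 to 14805.6 in dec2P384R. Of 5 fat body genes tested on Illumina, the storage protein genes Lsp1alpha, Lsp1beta and Lsp2 rose and Adh fell in limma. On Nanopore 0 of 4 passed in edgeR or DESeq2, with a median log2 fold change of 0.955. The fat body list summed to 233 to 332 FPKM in the control and 332 to 654 in dec2P384R. None of 7 Malpighian tubule genes passed in limma, at an unadjusted p under 0.05, or in edgeR or DESeq2 on recovered reads, with sums of 150 to 170 FPKM in the control and 144 to 176 in dec2P384R.

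**Figure D2:**
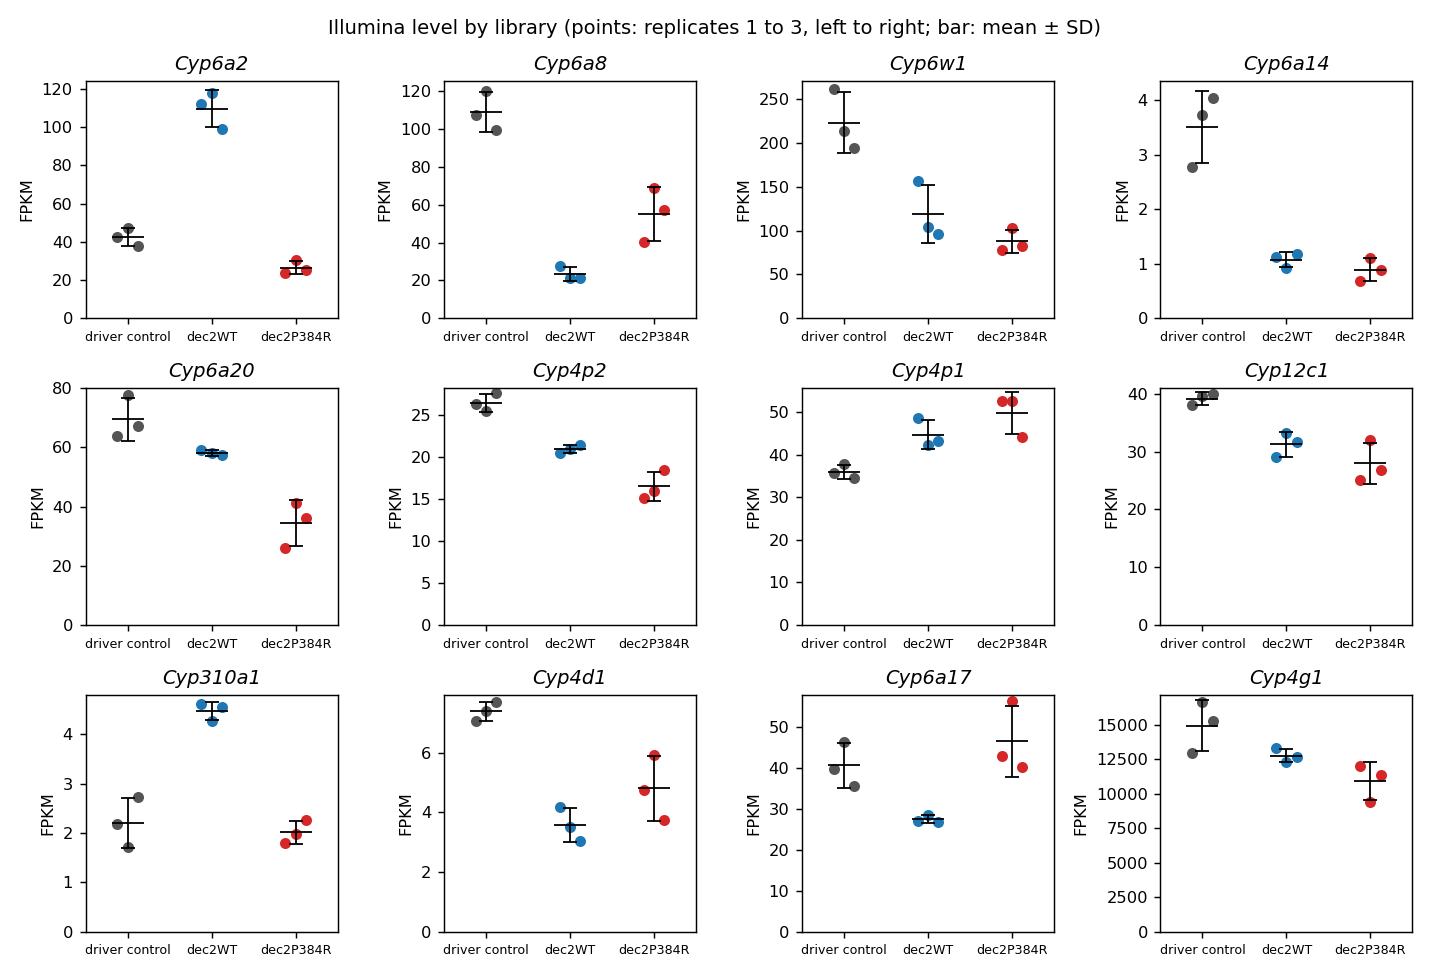
FPKM in each Illumina library of the 11 P450 genes past the threshold in any comparison, and of Cyp4g1; points are replicates 1 to 3 from left to right, and bars give the mean ± SD of 3 libraries. Cyp6a2 was highest in dec2WT and lowest in dec2P384R, Cyp6a8 was lowest in dec2WT, and Cyp6w1 and Cyp6a14 were lower with either transgene than in the driver control.

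The second comparison set flies with the unmutated transgene against the same driver control libraries. On Illumina 6 of 77 P450 genes (7.79%) passed, against 2.61% of all genes tested. Cyp6a8, Cyp6a14, Cyp4d1 and Cyp6w1 fell, and Cyp6a2 and Cyp310a1 rose, while 1.39% of all genes fell and 1.22% rose. The remaining 71 did not pass, and the median log2 fold change was 0.01 over the P450 genes and 0.0013 over all genes. The median size regardless of sign was 0.265 for the P450 genes and 0.115 for all genes. Libraries of the groups did not overlap for 32 P450 genes (41.6%), against 20% of all genes.

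Cyp6a8 (FBgn0013772, 2R, 14887171 to 14889010) had the largest log2 fold change of any P450 gene in the 3 Illumina comparisons. It read 107, 120 and 99.7 FPKM in the control libraries, 27.5, 21.5 and 21.1 in those of dec2WT, and 40.1, 68.6 and 56.9 in those of dec2P384R. The 3 genotypes did not overlap, with the control highest, dec2P384R next and dec2WT lowest. The fall in dec2WT was 4.61-fold (−2.20 ± 0.18 SE, limma adjusted p = 9.3e-05).

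Cyp6a2 (FBgn0000473, 2R, 6779749 to 6781491) went the other way and was the only P450 gene called in opposite directions against the control in the transgenic groups, in the limma fits of the Illumina data. It read 42.3, 47.2 and 37.8 FPKM in the control libraries, 112, 118 and 98.8 in those of dec2WT, and 23.5, 30.3 and 25.4 in those of dec2P384R. Each genotype again kept to its own range, now with dec2WT highest and dec2P384R lowest. The rise in dec2WT was 2.57-fold (1.36 ± 0.13, limma adjusted p = 0.000195).

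Cyp6a14 read 1.13, 0.926 and 1.17 FPKM in dec2WT, below all control libraries and close to dec2P384R (−1.34 ± 0.17 against the control, limma adjusted p = 0.00177). On Nanopore it read 14.9, 11.2 and 12.2 CPM in dec2WT, below all control libraries (28.7, 19.3 and 31.1). There it did not pass in edgeR (−1.11 ± 0.32, adjusted p = 0.181), but passed in edgeR with the 6 compared libraries alone (0.035). The authors' deposited table for this Nanopore comparison gives it an adjusted p of 0.0138. Cyp6w1 read 156, 104 and 96.2 FPKM in dec2WT, also below all control libraries (−0.93 ± 0.19, limma adjusted p = 0.0286). The Cyp6w1 call was lost in 5 of 9 omissions, with adjusted p up to 0.138 without dec2WT replicate 2, and was 0.053 with the 6 compared libraries alone.

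Cyp4d1 (FBgn0005670, X, 2159145 to 2162180) read 7.06, 7.40 and 7.70 FPKM in the control libraries, 4.17, 3.51 and 3.06 in those of dec2WT, and 4.75, 5.92 and 3.75 in those of dec2P384R. Both transgenic groups were below the control, and only the fall in dec2WT passed (−0.96 ± 0.16, limma adjusted p = 0.00809; in dec2P384R −0.59 ± 0.16, 0.0859). Cyp310a1 (FBgn0032693, 2L, 18651058 to 18653010) read 2.19, 1.72 and 2.73 FPKM in the control libraries, 4.61, 4.27 and 4.55 in those of dec2WT, and 1.80, 1.99 and 2.26 in those of dec2P384R. All dec2WT libraries were above all others, and the other groups overlapped (dec2WT over control 0.89 ± 0.15, limma adjusted p = 0.00939).

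Midgut genes were again lower beside these results, and their part was not tested: 5 of 15 fell and 0 rose in limma, and the list summed to 11281.6 to 12547.6 FPKM in dec2WT, below the control range of 13946.3 to 16600.9. The fat body storage protein genes Lsp1alpha, Lsp1beta and Lsp2 rose on Illumina in limma, and that list summed to 305 to 522 FPKM in dec2WT. On Nanopore 0 of 4 fat body genes passed in edgeR or DESeq2, with a median log2 fold change of 1.0. In the authors' deposited table for this Illumina comparison, which lists changes of at least 2-fold, 6 P450 genes appear. Apart from Cyp6w1, which it lacks, they are those named above, with the addition of Cyp6a23 (log2 1.10, adjusted p = 0.0276 in that deposited table). In the limma fit Cyp6a23 had a log2 fold change of 1.09 ± 0.31 and an adjusted p of 0.128.

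The third comparison, dec2P384R against dec2WT, asked which P450 genes differed between the transgenic groups. Here and in the comparisons with the control, an effect of Dec2 cannot be told apart from other differences between the fly lines. Only 4 of 77 (5.19%) passed in limma, against 0.783% of all genes. Cyp6a2 and Cyp310a1 were lower in dec2P384R, and Cyp6a8 and Cyp6a17 were higher, as were 0.283% and 0.499% of all genes in the same order. Cyp6a2 differed 4.10-fold (−2.04 ± 0.13 SE, limma adjusted p = 4.2e-05) and kept its call in all 9 omissions of a library. Cyp310a1 (−0.99 ± 0.15, limma adjusted p = 0.011) and Cyp6a8 (1.20 ± 0.18, 0.0111) each lost theirs in 4 omissions, with adjusted p up to 0.0591 without dec2WT replicate 3 and 0.0612 without dec2WT replicate 2. The other 73 genes did not pass, and 16 P450 genes (20.8%) had libraries that did not overlap, against 13.3% of all genes.

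Cyp6a17 (FBgn0015714, 2R, 14873953 to 14875739), known for its role in temperature preference, read 27.1, 28.6 and 26.9 FPKM in dec2WT and 43.1, 56.5 and 40.3 in dec2P384R. The control, at 39.8, 46.5 and 35.7 FPKM, overlapped dec2P384R and lay above dec2WT. The difference between the transgenic groups was 0.73 ± 0.14 (limma adjusted p = 0.0424) and was lost in 7 of 9 omissions (up to 0.171, without dec2WT replicate 3), without a filter on low values (0.0623) and with the 6 compared libraries alone (0.063). The count of 4 was 2 without dec2WT replicate 1 or dec2P384R replicate 2, and 1 without dec2WT replicate 2 or 3. The share of all genes called was also lower in these omissions, at 0.517%, 0.488%, 0.419% and 0.427% in the same order, in place of 0.783%. Between these groups Cyp6a20 was lower in every dec2P384R library (−0.77 ± 0.16), with an adjusted p of 0.0583 in limma and 0.0402 in edgeR on recovered reads. Of the marker genes, 2 of 15 midgut genes and Adh were lower in dec2P384R than in dec2WT in limma, and their part in these results was not tested.

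Chromosome arm 2R held 8 of the 11 distinct P450 genes called on Illumina and 33 of the 77 tested, a share that was counted and not tested. The share of all called genes that lie on 2R is not given here, so nothing particular to P450 genes can be read from this. P450 genes lie in tandem groups: with starts less than 20000 bases apart, 47 genes fell into 16 clusters and 38 stood alone. The largest cluster, on 2R from 14871366 to 14903095 in the coordinates deposited with the Illumina values, holds Cyp6a22, Cyp6a17, Cyp6a23, Cyp6a19, Cyp6a9, Cyp6a20, Cyp6a21, Cyp6a8 and Cyp317a1. In dec2WT over control, Cyp6a8 had a log2 fold change of −2.20 while its nearest listed neighbour Cyp6a21 had 0.04 ± 0.23. The other tested genes had −0.55 ± 0.14 (Cyp6a17), −0.25 ± 0.16 (Cyp6a20), −0.17 ± 0.15 (Cyp317a1), 0.08 ± 0.17 (Cyp6a22), 0.48 ± 0.14 (Cyp6a9) and 1.09 ± 0.31 (Cyp6a23). None of these others passed in the main limma fit. With the 6 compared libraries alone, Cyp6a17 and Cyp6a9 passed in limma (adjusted p = 0.0398 and 0.034). They also passed in limma without dec2P384R replicate 2 (0.0294 and 0.0237). Cyp6a23 passed in limma without dec2P384R replicate 1 (0.0467). Cyp6a17 passed in DESeq2 on recovered reads (adjusted p = 0.0109), and Cyp6a17, Cyp6a9 and Cyp6a23 passed in limma with a replicate block. In dec2P384R over control, Cyp6a8 and Cyp6a20 fell. Cyp317a1 (−0.31 ± 0.15), Cyp6a21 (−0.08 ± 0.23), Cyp6a22 (0.05 ± 0.17), Cyp6a17 (0.19 ± 0.14), Cyp6a23 (0.38 ± 0.31) and Cyp6a9 (0.51 ± 0.14) did not pass in limma without a block. Of these, only Cyp6a9 had libraries that did not overlap.

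Cyp6a23, beside Cyp6a17, read 46.1, 56.6 and 81.2 FPKM in the control libraries, 89.3, 148 and 156 in those of dec2WT, and 48.3, 91.3 and 107 in those of dec2P384R. Its dec2WT libraries were all above the control, but the spread within each genotype was wide. Cyp6a17 and Cyp6a23 are similar in sequence, and how reads that fit both were counted is not given in the sources used here. The same holds for the near-identical pair Cyp12d1-d and Cyp12d1-p, whose values are uncertain; Cyp12d1-d read 61.5 to 78.3 FPKM in the control and 31.9 to 60.2 in dec2P384R (−0.83 ± 0.23, limma adjusted p = 0.108).

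**Figure D3:**
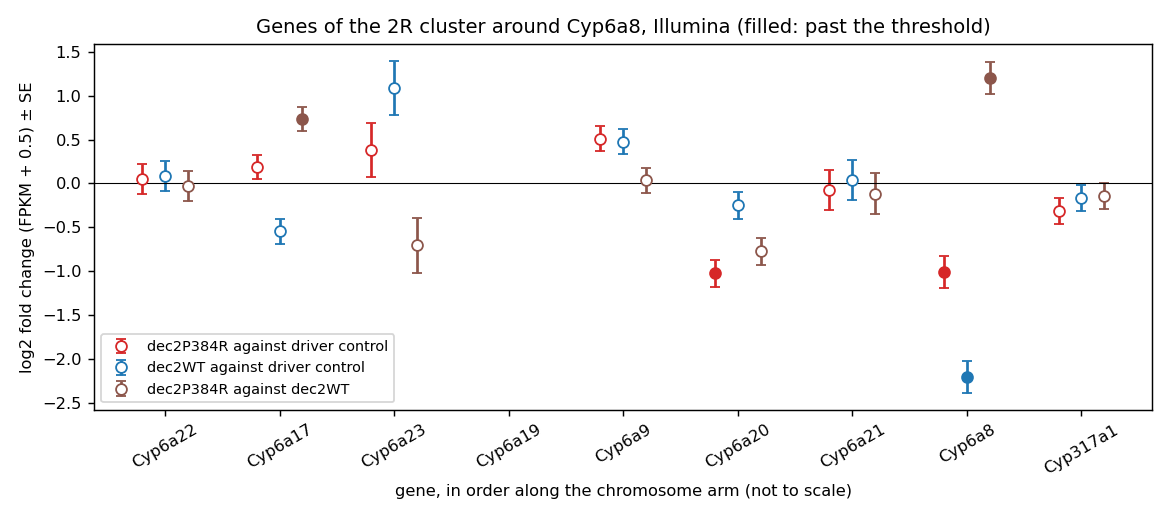
Log2 fold change ± SE on Illumina for the genes of the 2R cluster around Cyp6a8, in chromosome order, in the 3 comparisons; filled points passed the threshold. Cyp6a8 fell with either transgene while neighbouring Cyp6a21 stayed near 0; Cyp6a19 was too low to test.

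Smaller clusters held other called genes. Beside Cyp6a14 on 2R, Cyp6a13 read 25.0 to 27.6 FPKM in the control, 32.7 to 34.6 in dec2WT and 30.4 to 39.6 in dec2P384R, above the control in both groups but not past the threshold (limma adjusted p = 0.249 and 0.209). The pseudogene Cyp6a15Psi between them read 0.891 to 1.17 FPKM in the control and 1.33 to 1.98 in the transgenic groups. Cyp4p3, which follows Cyp4p2 and Cyp4p1, read 12.0 to 17.8 FPKM in the control and 16.5 to 31.5 in dec2P384R.

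Nanopore libraries gave a second reading of the same genes, in separate libraries of the same genotypes. Of 74 P450 genes tested in edgeR, 2 passed in dec2WT against control (0.799% of all 11393 genes passed), 1 in dec2P384R against dec2WT (0.132% of all) and 0 in dec2P384R against control (0.474% of all). By direction, the shares of all genes that were higher and lower were 0.29% and 0.509%, 0.0702% and 0.0614%, and 0.219% and 0.255% in these comparisons. In that last comparison 17 of the 74 P450 genes had an unadjusted p under 0.05, as did 1256 of all 11393 genes. DESeq2 called Cyp4e3 and Cyp6a20, and 0.801% of all genes. With the 6 compared libraries alone edgeR called these P450 genes and Cyp6w1, and 0.589% of all genes. Without dec2WT replicate 1 edgeR called 2 P450 genes (0.503% of all genes), and without dec2WT replicate 2 it called 1 (0.606%). Libraries of the groups did not overlap for 15 P450 genes (20.3%) in dec2P384R against control, 15 (20.3%) in dec2WT against control and 9 (12.2%) between the transgenic groups, against 16.9%, 16% and 11% of all genes.

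Cyp6a2 was called on both platforms. It read 49.3, 31.15 and 37.1 CPM in the Nanopore control libraries, 116, 152 and 92.3 in those of dec2WT, and 32.8, 29.9 and 39.9 in dec2P384R. The dec2WT libraries were again above all others, by a log2 fold change of 1.56 ± 0.21 over the control (edgeR adjusted p = 0.00259), and dec2P384R was lower than dec2WT (−1.83 ± 0.22, adjusted p = 0.00384). The difference of dec2P384R from the control seen on Illumina did not pass on Nanopore (−0.28 ± 0.22, adjusted p = 0.692), where those groups overlapped.

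Cyp6a8 read 104, 91.05 and 62.0 CPM in the Nanopore control libraries, 24.0, 29.4 and 15.2 in dec2WT and 65.5, 80.4 and 39.7 in dec2P384R. It was lowest in dec2WT, as on Illumina (−1.97 ± 0.28 against control, edgeR adjusted p = 0.004). The higher level in dec2P384R than in dec2WT, 1.41 ± 0.29, did not pass in edgeR (adjusted p = 0.116) and passed in DESeq2 (0.00147). The 3 Nanopore calls of Cyp6a2 and Cyp6a8 were kept in all 9 omissions of a library.

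Of the genes called on Illumina, 7 of 8 had the same sign on Nanopore in dec2P384R against control, 6 of 6 in dec2WT against control and 4 of 4 between the transgenic groups. Over the 70 P450 genes tested on both platforms, called or not, the sign was the same for 49, 53 and 36 in that order. The exception among the called genes was Cyp4p2, at 0.19 ± 0.23 on Nanopore. Cyp6w1 read 317, 344 and 181 CPM in the control libraries, 91.8, 298 and 55.9 in those of dec2WT, and 80.2, 103 and 127 in those of dec2P384R. The dec2P384R libraries were all below the control (−1.52 ± 0.49, edgeR adjusted p = 0.257), and dec2WT replicate 2 was as high as the control. Without that library Cyp6w1 passed in dec2WT against control (−1.99 ± 0.34, adjusted p = 0.017) and in dec2P384R against control (0.0392).

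Cyp4e3, known for permethrin tolerance in Malpighian tubules, differed between platforms. It read 31.7, 54.1 and 32.0 CPM in the Nanopore control and 16.6, 11.4 and 14.6 in dec2P384R, with no overlap (−1.58 ± 0.45, edgeR adjusted p = 0.202). On Illumina it read 43.7, 22.2 and 18.6 FPKM in the control and 54.6, 29.6 and 22.4 in dec2P384R, and the groups overlapped (0.33 ± 0.38, limma adjusted p = 0.752). Within each replicate number, however, dec2P384R was above the control on Illumina, opposite to Nanopore, and with the number as a block the difference was 0.33 ± 0.10 (limma adjusted p = 0.122), which did not pass. At the other end, Cyp6a16 read 0.722, 1.94 and 1.32 CPM in the Nanopore control and 7.28, 4.49 and 3.35 in dec2P384R, without overlap and with few counts (1.79 ± 0.46, edgeR adjusted p = 0.148). Its Illumina groups did not overlap either (0.59 ± 0.18, limma adjusted p = 0.138). In the authors' deposited table for the Nanopore comparison of dec2P384R with the control, 4 P450 genes have an adjusted p under 0.05, Cyp4e3, Cyp6w1, Cyp6a20 and Cyp12d1-d, all lower in dec2P384R. Across the 70 genes tested on both platforms, log2 fold changes had a Pearson r of 0.568 in dec2P384R against control, 0.793 in dec2WT against control and 0.548 between the transgenic groups; these describe the members, which are not replicates.

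**Figure D4:**
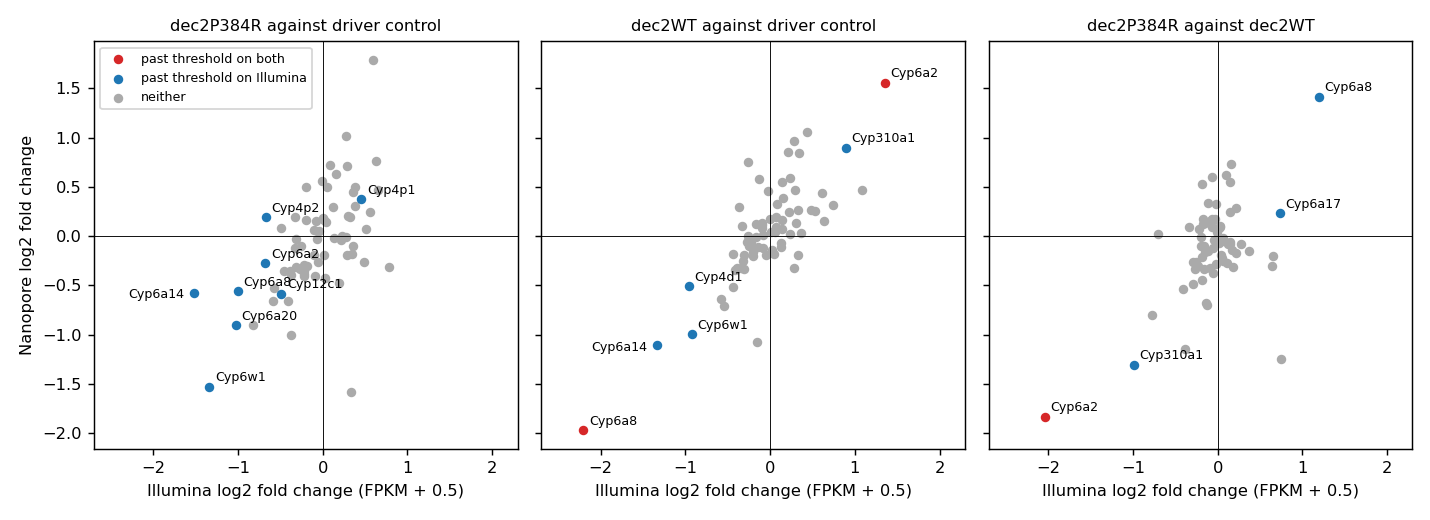
Log2 fold change of each P450 gene tested on both platforms, Illumina on the horizontal and Nanopore on the vertical axis, in the 3 comparisons. Cyp6a2 and Cyp6a8 lay far from 0 on both platforms in dec2WT against the control, and Cyp4p2 lay on opposite sides of 0 in dec2P384R against the control, as did the unlabelled point of Cyp4e3 at 0.33 and −1.58.

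Cyp9c1 and Cyp4d2 were at 0 in all 9 Illumina libraries, where a count of 0 allows up to 3 reads per library, yet Nanopore gave 36 to 71.0 estimated counts per library for Cyp9c1 and 62 to 166 for Cyp4d2. Cyp4d14 was similar, at 0 to 0.0463 FPKM on Illumina and 49.2 to 181 counts on Nanopore, and Cyp4ae1 read 0.17 to 0.911 FPKM and 11 to 47.3 counts. These 4 were the P450 genes, of 84 found in the annotation, with over 80% of their exonic bases facing genes on the opposite strand. The share was 98.2% for Cyp9c1 (facing asRNA:CR43787), 98.7% for Cyp4d2 (asRNA:CR44690), 97.2% for Cyp4d14 (ND-B14.5A and asRNA:CR45479) and 88.3% for Cyp4ae1 (asRNA:CR44690). ND-B14.5A, a respiratory complex I subunit, read 143 to 196 FPKM, and the facing antisense RNAs read at most 1.33 FPKM on Illumina. The part of the overlap in the Illumina zeros was not tested. Only Cyp4ae1 of the 4 passed the filter for testing on Illumina. On Nanopore, Cyp9c1 ranged from 15.0 to 19.2 CPM and Cyp4d2 from 30.5 to 42.5 CPM over all 9 libraries.

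**Figure D5:**
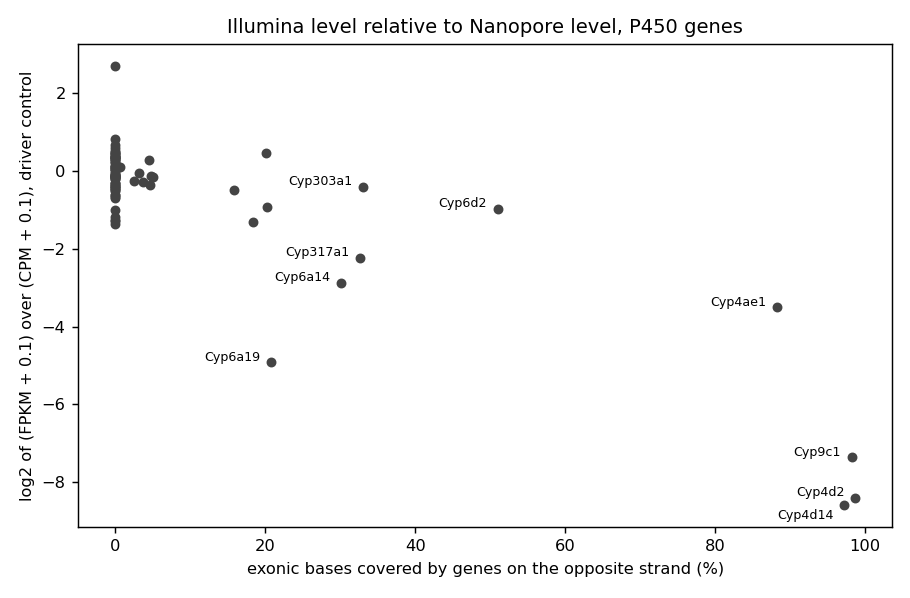
Illumina level relative to Nanopore level in the driver control, as log2 of (FPKM + 0.1) over (CPM + 0.1), against the percentage of each P450 gene's exonic bases that face a gene on the opposite strand. The 4 genes over 80% lay at the bottom of the plot together with Cyp6a19, which is covered to 20.8% by Cyp6a9.

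The 8 P450 genes not tested on Illumina were Cyp9c1, Cyp4d2, Cyp4d14, Cyp6a19, Cyp6t2Psi and the neighbours Cyp313a2, Cyp313a3 and Cyp313a5. Cyp6a19 read 0.141 to 0.367 FPKM on Illumina, and its Nanopore level ran from 0.561 to 33.5 CPM within and between genotypes. Cyp313a5 was at 0 in every Nanopore library and Cyp313a2 in 8 of 9.

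None of the 8 genes that feed electrons to P450s passed in limma on Illumina or in edgeR on Nanopore. Cpr, the reductase of the microsomal P450s, read 569.1, 740.9 and 596.1 FPKM in the control libraries, 563.8, 494.0 and 512.6 in those of dec2WT and 480.6, 478.3 and 512.9 in those of dec2P384R. All dec2P384R libraries were below the control and every dec2WT library was below its lowest library too, but the log2 fold changes of −0.36 ± 0.13 and −0.27 ± 0.13 did not pass (limma adjusted p = 0.221 and 0.491). Cyt-b5, an electron donor to some P450s, ranged from 838.0 to 1130.8 FPKM, and the adrenodoxin reductase gene dare from 6.67 to 9.35. At an unadjusted p under 0.05 there were 2, 2 and 0 partner genes on Illumina and 2, 1 and 0 on Nanopore, in the order of the comparisons above. The counts over all genes at this cut were 1893, 1520 and 1083 of 13418 on Illumina. On Nanopore they were 1256, 1155 and 819 of 11393. On recovered Illumina reads edgeR and DESeq2 each called 1, the cytochrome b5-like gene CG3566, with either transgene against the control; it read 26.4 to 28.1 FPKM in the control, 36.2 to 37.8 in dec2WT and 31.8 to 40.6 in dec2P384R. The median log2 fold changes on Illumina were −0.02, −0.07 and 0.03 in the same order.

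Of the 6 Halloween genes, sad and shd were expressed enough to be tested on Illumina, and 0 passed in limma, also at an unadjusted p under 0.05, nor in edgeR or DESeq2 on recovered reads. The gene shd, whose enzyme makes the active moulting hormone, read 0.73 to 1.74 FPKM; phm read 9.25 FPKM in dec2WT replicate 3 and at most 0.406 in the other 8 libraries, and was not tested. Cyp18a1, which inactivates ecdysteroids, read 3.69 to 5.41 FPKM. Among 16 tested regulators, such as the xenobiotic receptor gene Hr96 and the CncC and Keap1 genes, 0 passed in limma, and 2, 0 and 1 had an unadjusted p under 0.05. The median log2 fold changes on Illumina were −0.21, −0.02 and −0.19. On Nanopore 0 of 17 passed in edgeR, 2, 5 and 2 had an unadjusted p under 0.05, the medians were −0.20, −0.34 and 0.13, and DESeq2 called 1, in dec2WT against control. The counts over all genes at the unadjusted cut are those given with the partner genes. On recovered Illumina reads edgeR called 0 regulators, and DESeq2 called 1, Hr38, between the transgenic groups.

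Glutathione S-transferases and UDP-glycosyltransferases act after P450s on foreign compounds. Of 35 glutathione S-transferase genes, GstD1, GstD3 and GstD7 (8.57%) rose in dec2P384R against control and 0 fell in limma, where 1.63% of all genes rose. GstD11 (2.86%) rose in dec2WT against control, where 1.22% of all genes rose, and GstD7 (2.86%) was higher in dec2P384R than in dec2WT, as were 0.499% of all genes. On recovered Illumina reads DESeq2 called 3, 1 and 3 of these genes in the same order, and 3.66%, 3.33% and 1.21% of all genes. There edgeR called 2, 1 and 0, and 3.07%, 2.91% and 0.771% of all genes. On Nanopore 0 of 32 passed in edgeR in any comparison. DESeq2 called 1 there, in dec2WT against control, and 0.881% of all genes. Of 12 tested UDP-glycosyltransferase genes, Ugt86Dd alone passed in limma (8.33%, against 2.8% of all genes in dec2P384R against control and 0.783% between the transgenic groups). In dec2P384R against control, DESeq2 on recovered reads called 3 genes of this list and edgeR called 1. Ugt86Dd averaged 99.5 ± 16.6 FPKM in the control, 92.5 ± 20.5 in dec2WT and 31.1 ± 7.74 in dec2P384R (SD, n = 3). It fell in dec2P384R against control (−1.68 ± 0.22, limma adjusted p = 0.00215) and against dec2WT (−1.56 ± 0.22, 0.00686), and against control on Nanopore as well (−1.69 ± 0.31, edgeR adjusted p = 0.031).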

How the data were processed

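Poly(A) RNA of whole flies was sequenced as paired 150-base Illumina reads and as Nanopore direct cDNA, per the labels' protocols. The submitters' processing notes list minimap2 and Salmon, HISAT2 with featureCounts 1.5.0-p3, and DESeq2, without roles; the genome build and strand setting are not given in the sources used here. The authors deposited FPKM per gene for Illumina, under a name that speaks of counts, and estimated counts for Nanopore, of which 55.1% were not whole. Their deposited comparison tables hold log2 fold changes, adjusted p-values and, on Illumina, raw counts. From these counts and gene lengths, 100% of Illumina values came back as whole reads within 1e-06; 36 further columns of values per library were not used. One Illumina column spells the mutant with exchanged digits and was read as dec2P384R replicate 2.

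For Illumina, log2(FPKM + 0.5) entered limma 3.58.1 with a trended prior, for the 13418 genes that reached 0.5 FPKM in 3 or more of the 9 libraries; fold changes on this scale understate those of low genes. Nanopore estimated counts were rounded and tested in edgeR 4.0.16 (TMM, filterByExpr, quasi-likelihood F-test) over 11393 genes, with SE derived from F and levels in CPM of the library total. Each model held the 9 libraries of a platform. All p-values are two-sided and adjusted by Benjamini and Hochberg's method over the genes of a platform, with 0.05 as threshold, in R 4.3.3. The procedures were also run on simulated data with a fixed spread and no deviations shared by replicate number. Such data cannot tell how the calls behave in these libraries. Alternatives were pseudocounts of 0.1 and 1, no filter, the 6 compared libraries alone, edgeR and DESeq2 1.42.0 on recovered reads, RLE scaling, a replicate block, and omission of each library.

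Positions are as deposited; of 84 P450 genes shared with the annotation BDGP6.54, 83 had identical coordinates, and overlaps were read from it. A pairing check correlated deviations from group means between libraries of the same replicate number. For dec2P384R and control on Illumina r was 0.256, 0.116 and 0.251. The main fits nevertheless held genotype only, without a replicate block. Values are therefore unpaired unless a block is named, and the fit with a block is given as an alternative.

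The members and lists were chosen with earlier results of these data known, and some marker list entries were dropped after the tables were in hand; lists were therefore counted and not tested. Every P450 gene past the threshold was named, with the 5 highest in the control, cluster neighbours of called genes and genes at 0. Depth per library limits low genes; limits from a count of 0 cover counting error only.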

Additional observations from a re-analysis of the deposited data

How the results depend on the processing

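Of 90 counts of P450 calls recomputed under another setting, 77 stayed within 1.5 times the reported count. This bound takes 12 in place of 8 as unchanged, and it does not ask whether the same genes were called. For the 12 genes drawn by library, 48 of 1080 single-gene settings lost a call and 20 gained one. No called direction was reversed, but the main fits held only 21 P450 calls, so many settings had none to reverse. Omitting a library of the genotype not compared also leaves a limma fold change as it was. Over all P450 genes tested, alternatives added 51 calls of 17 genes, among them Cyp9f3, Cyp6a20, Cyp6t1, Cyp6a9, Cyp4e3 and Cyp6a23. A gene was counted again under each setting that called it. The calls added over all genes are not given here, so nothing particular to P450 genes can be read from the 51. For dec2P384R against control on Illumina, DESeq2 on recovered reads called 14, and 3.66% of all genes. Omitting 1 library gave 4 to 10, with 1.34% to 2.65% of all genes called. For dec2P384R against dec2WT on Illumina, omissions gave 1 to 4, with 0.419% to 0.772% of all genes called. For dec2WT against control on Illumina they gave 5 to 9, with 1.36% to 2.9% of all genes called. On Nanopore, dec2P384R against control gave 2 in DESeq2, 3 with the 6 compared libraries alone and 0 to 2 over omissions. The shares of all genes were 0.801%, 0.589% and 0.234% to 0.606% in the same order. In DESeq2, dec2P384R against dec2WT gave 2 on Nanopore, and 0.312% of all genes. Of 18 Illumina gene calls, 10 were kept in every omission, as were all 3 Nanopore calls. Causes of these moves were not tested.

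With replicate number as a block, the Illumina counts were 12 in dec2P384R against control, 9 in dec2WT against control and 8 in dec2P384R against dec2WT, and the Nanopore counts were 0, 2 and 2. The shares of all genes called on Illumina were 3.76%, 3.53% and 0.969% with the block, in place of 2.8%, 2.61% and 0.783%. On Nanopore they were 0.342%, 0.597% and 0.105% with the block, in place of 0.474%, 0.799% and 0.132%. Outside dec2P384R against control on Illumina, same-number correlations ranged from −0.12 to 0.24 and the samples share only a number. In dec2P384R against dec2WT on Illumina each library correlated best with its own number, which is a hint from the data and not the design. The block changed no other call in dec2P384R against control than those given above.

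The filters left 8 P450 genes untested on Illumina and 11 on Nanopore, of which Cyp6a15Psi and Cyp6t2Psi have no Nanopore value; the part of depth in this was not tested. Calls near the threshold, such as Cyp4p1, Cyp12c1 and Cyp6a17, were lost in 7 or 8 of 9 omissions.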

Other observations

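The median within-genotype SD of log2(FPKM + 0.5) was 0.204 over 77 P450 genes and 0.179 over all 13418 genes. For 19 P450 genes (24.7%) the library numbered 1 was the lowest in all 3 genotypes on Illumina, against 8.22% of all genes; they include Cyp6g1, Cyp28d1, Cyp9b2, Cyp12a4 and Cyp6a23. Cyp28d1, for example, read 124, 131 and 177 FPKM in the control libraries, 172.2, 260.4 and 239 in those of dec2WT and 132, 290.5 and 242 in those of dec2P384R. Cyp4e3, Cyp4p3, Cyp18a1 and Cyp4ae1 (5.19%, against 8.35% of all genes) were highest in the library numbered 1 in all 3 genotypes. The labels do not say whether a number marks a shared collection or sequencing run, and this was not tested.

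The cyclophilin gene Cyp1, which shares the symbol but not the enzyme class, read 407 to 573 FPKM, and its log2 fold changes on Illumina were −0.02 ± 0.15, 0.00 ± 0.15 and −0.03 ± 0.15 in dec2P384R against control, dec2WT against control and dec2P384R against dec2WT.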
